A study of Homo sapiens and Mus musculus with 4 samples.

Results

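Jurkat and TALL104, 2 established human T-cell leukaemia lines, were compared across all human genes that reached at least 1 FPKM in either line. FPKM is the number of sequenced fragments on a gene, scaled by the gene's length and by the size of the library. Of 32738 human genes, and of 60736 human and mouse genes in the table, 12214 met this rule and are called measured genes here. For each of them the comparison was the log2 ratio of FPKM + 1 in Jurkat over FPKM + 1 in TALL104, so that a positive value is higher in Jurkat and a value of 1 is a 2-fold difference. The rule used levels only and no difference between the lines. At its edge, SPIN3 was kept with 0.0259 FPKM in Jurkat and 1.0002 in TALL104, and SLC23A3 was left out with 0.9993 in TALL104.

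The study mixed human and mouse lymphocyte lines to compare single-cell methods, and bulk messenger RNA of each line was sequenced as its reference. Jurkat is a CD4 T-cell leukaemia line and was grown in RPMI-1640 medium with fetal bovine serum. TALL104 is a T-cell leukaemia line of CD8 type and was grown in IMDM medium with a larger share of fetal bovine serum and with interleukin-2. The paper describes TALL104 cells as smaller, slow to grow and more difficult to culture, with limited viability. The lines therefore differ in origin and medium and may differ in growth and viability, and these effects cannot be told apart. Each line was 1 culture and 1 library, so neither line has a spread between cultures, no test was possible, and every difference below is between these 2 libraries. The other lines sequenced were the mouse T lymphoma line EL4 and the mouse B-lineage hybridoma IVA12.

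T cells mature in the thymus, where immature cells express CD1 proteins, rearrange their receptor genes and divide rapidly. After they leave, cytotoxic T cells and natural killer (NK) cells store perforin and granzymes in granules, carry activating and inhibitory NK receptors, and respond to cytokines such as interleukin-2, 12, 15 and 18 through JAK kinases and STAT transcription factors. T leukaemias are stopped at different points along this path and keep many genes of the stage from which they came.

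The libraries held 34783047 reads on genes in Jurkat and 28345951 in TALL104, as recovered from the steps between the FPKM values. Values are followed by their exact 95% Poisson interval in brackets where one is given. At 10 FPKM or more, this interval reached a median of 3.39% to either side in Jurkat and 3.75% in TALL104. These intervals cover counting error only and say nothing of the difference between 2 cultures of one line. In a bulk library fewer cells with a transcript and less of it per cell cannot be told apart. The genes encoded by the mitochondrial genome held 14.9% of the human FPKM in Jurkat and 20.6% in TALL104. Rescaling both libraries without these genes shifted the log2 ratios by 0.11, and scaling by the median ratio of the 9465 genes found in both lines also shifted them by 0.11, so a log2 ratio near 0.11 is the middle of the comparison. Exons of 6437 of the measured genes overlap another annotated gene, 2198 of them on the same strand, and the reads of these genes are less certain.

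The marker genes separated the lines, with the thymocyte genes high in Jurkat and the NK and granule genes high in TALL104. CD1E, a lipid-presenting molecule of cortical thymocytes, had 163 FPKM in Jurkat (161 to 166) against 0.0637 in TALL104 (0.0207 to 0.149), log2 ratio 7.27. DNTT, the polymerase that adds random bases while receptor genes are rearranged, had 63.5 FPKM in Jurkat against 0.0519 in TALL104 (log2 ratio 5.94, 3 reads in TALL104, FPKM ratio 1225, interval 419 to 5942). KLRB1, the NK receptor CD161, had 0.0993 FPKM in Jurkat (0.0322 to 0.232) against 589.6 in TALL104 (582 to 597), log2 ratio -9.07, and its exons overlap a gene on the opposite strand. NKG7, a protein of cytotoxic granules, had 11.6 FPKM in Jurkat (10.5 to 12.9) against 605 in TALL104 (595 to 614), log2 ratio -5.58, so it was present in both lines. Of the coreceptors that name the lines, CD4 was low, with 0.985 FPKM in Jurkat, just under the minimum, and 0.0308 in TALL104, and CD8A had 0.601 FPKM in Jurkat against 28.3 in TALL104 (log2 ratio -4.19). Few listed markers of other blood cells were measured. Of 18 genes each, 7 B-cell genes, 5 myeloid genes and 2 erythroid genes were measured, and the highest of them were the transferrin receptor TFRC, which dividing cells share, with 99.5 FPKM in Jurkat against 34.4 in TALL104 (log2 ratio 1.51), and IGLL1, the surrogate light chain of early lymphoid cells, with 33.5 FPKM in Jurkat against 0.07805 in TALL104 (log2 ratio 4.9996, 2 reads in TALL104, FPKM ratio 429, interval 118 to 3548). CTSG, a myeloid granule protease outside these lists, had 42.9 FPKM in Jurkat against 0.1797 in TALL104 (log2 ratio 5.22).

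Of the measured genes, 2747 (22.5%) were at least 2-fold higher in Jurkat and 2275 (18.6%) at least 2-fold higher in TALL104. The other 7192 were within 2-fold. The median log2 ratio was 0.10, and the quartiles were -0.72 and 0.89. The ratios ran from -9.47, in a gene matched to no symbol and so not named here, to 7.27. At least 1 FPKM was reached in both lines by 9465 genes, in Jurkat alone by 1392 and in TALL104 alone by 1357. At 2-fold more genes were higher in Jurkat, and at large differences more were higher in TALL104. The excess at 2-fold did not hold under rescaling, which gave 2487 and 2495 genes with the median ratio as the scale, 2495 and 2487 without the mitochondrially encoded genes, and 2471 and 2509 without these and the ribosomal protein genes. Past 4-fold there were 816 genes in Jurkat and 873 in TALL104, past 8-fold 280 and 402, and past 32-fold 15 and 77. For comparison, 3420 of 10801 measured genes (31.7%) differed 2-fold in either direction between the 2 mouse lines, which are of different lineages, against 41.1% here, and no test of that difference was possible. Across the measured genes the Pearson correlation of the log2 levels was 0.625, given as a description only, since genes are not replicates. Of the 5022 genes past 2-fold, 5021 had either a counting interval of the ratio that excluded 1 or reads in only 1 line. The genes were picked by a ratio of the same reads, so this count says nothing further about them.

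**Figure D1:**
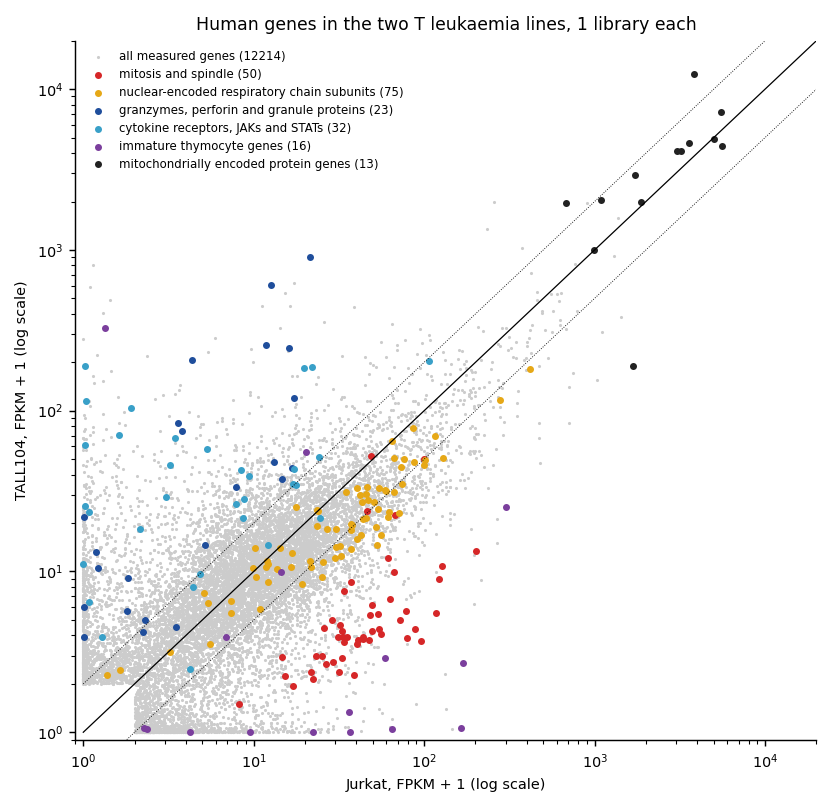
Levels of the 12214 measured genes in Jurkat (horizontal) and TALL104 (vertical) as FPKM + 1 on log scales, 1 point per gene, with the line of equality and dotted lines at 2-fold. Mitosis genes lie below the lower dotted line in 48 of 50 cases, granule genes above the upper one in 21 of 23, and the respiratory chain subunits run along the lower edge of the middle band.

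The genes were then read in 58 lists of pathways and families, which together held 1585 of the measured genes. Every count of a list below stands beside the background of all measured genes, 22.5% higher in Jurkat and 18.6% higher in TALL104. The median log2 ratio of a list was 1 or more for 8 lists and -1 or less for 14, and lay between for the other 36. The 3 highest medians were those of immature thymocyte genes (3.42), mitosis (3.21) and T-leukaemia transcription factors (2.48), and the 3 lowest those of chemokines and cytokines (-3.52), NK-type receptors (-3.31) and coreceptors (-2.92). The median of the 9 T-leukaemia factors depended on which genes counted as measured: it was 0.02 without a minimum and 1.18 with at least 1 FPKM in both lines, which puts it below DNA replication (2.24, and 2.13 or more under every alternative run). The median of the coreceptors likewise came to -0.61 without a minimum. The lists were written by hand with earlier results of these libraries known, so the counts describe them and do not test them.

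**Figure D2:**
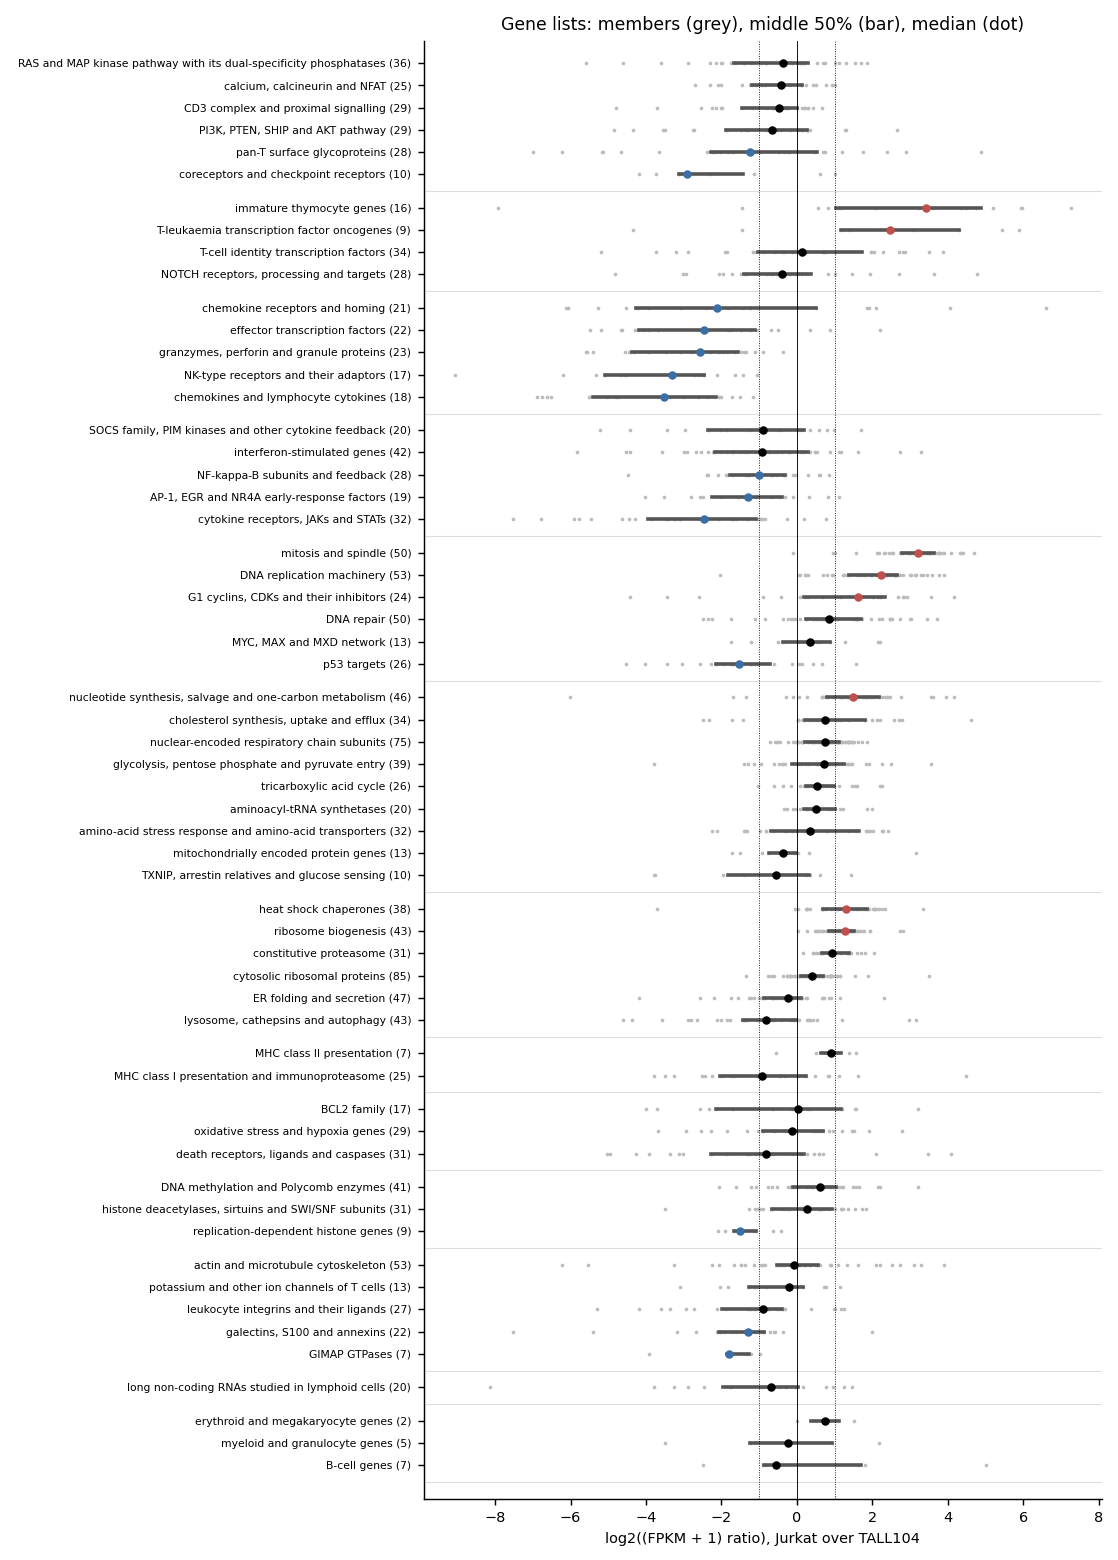
log2((FPKM + 1) ratio) of Jurkat over TALL104 for the measured members of 58 gene lists (number of members in brackets), with each member as a grey point, the middle 50% as a bar and the median as a dot, red at 1 or more and blue at -1 or less. Dotted lines mark 2-fold, lists are grouped by theme, and the medians run from -3.52 to 3.42.

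The thymic side of the comparison lay in Jurkat. Of 16 immature thymocyte genes measured, 12 were higher in Jurkat and 2 in TALL104, against the background of 22.5% and 18.6%. The CD1 genes stood together: CD1B had 35.8 FPKM in Jurkat against a listed 0 in TALL104, and CD1C had 35.4 FPKM in Jurkat against 0.344 in TALL104 (log2 ratio 4.76). CHI3L2, a chitinase-like protein, had 167 FPKM in Jurkat against 1.68 in TALL104 (log2 ratio 5.97). ADA, the adenosine deaminase that protects immature lymphocytes from toxic nucleosides, had 303 FPKM in Jurkat against 24.05 in TALL104 (log2 ratio 3.601) and was the highest gene of the list in Jurkat. The 2 exceptions were TRIB2, a pseudokinase, with 19.1 FPKM in Jurkat against 54.5 in TALL104 (log2 ratio -1.46), and KIT, the receptor for stem cell factor carried by early progenitors, with 0.336 FPKM in Jurkat against 326 in TALL104 (log2 ratio -7.93). KIT is a thymocyte gene by its place in the list, and it was the gene of the list with the largest ratio in either direction.

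Most of the measured leukaemia oncogenes were higher in Jurkat, and 2 were higher in TALL104. MYB, a transcription factor of blood progenitors, had 88.8 FPKM in Jurkat against 0.508 in TALL104 (log2 ratio 5.896). TAL1, a basic helix-loop-helix factor switched on in many T leukaemias, had 55.9 FPKM in Jurkat against 0.309 in TALL104 (log2 ratio 5.44). Its frequent partner LMO2 was on the opposite side, with 0.00925 FPKM in Jurkat against 19.5 in TALL104 (log2 ratio -4.35, 1 read in Jurkat, FPKM ratio 2112, interval 379 to 83460.4). LMO1, a relative of LMO2, had 1.62 FPKM in Jurkat against a listed 0 in TALL104, so each line carried a different LMO gene. Homeobox genes were also on both sides. HOXA5 had 4.58 FPKM in Jurkat against a listed 0 in TALL104 and HOXA7 had 7.64 FPKM in Jurkat against a listed 0 in TALL104, whereas HOXA11 had 1.73 FPKM in TALL104 against a listed 0 in Jurkat. BMI1, a Polycomb subunit that keeps progenitors dividing, had 19.2 FPKM in Jurkat against 7.92 in TALL104 (log2 ratio 1.18). In all, 7 of the 9 measured genes were higher in Jurkat and 2 in TALL104, and the other 13 of the 22 listed did not reach 1 FPKM in either line.

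NOTCH signalling, which commits progenitors to the T lineage, was divided. Of 28 measured genes, 6 were higher in Jurkat, near the background of 22.5%, and 9 in TALL104, against a background of 18.6%. Those higher in Jurkat were 1 receptor and 5 targets, and those higher in TALL104 included 3 ligands and another receptor. DTX1, a target that feeds back on NOTCH, had 26.2 FPKM in Jurkat against a listed 0 in TALL104. HES4 and HES1 are repressors switched on by NOTCH. HES4 had 11.3 FPKM in Jurkat against a listed 0 in TALL104, and HES1 had 3.32 FPKM in Jurkat against 0.137 in TALL104 (log2 ratio 1.93). The receptor NOTCH3 had 5.68 FPKM in Jurkat against 0.02005 in TALL104 (log2 ratio 2.71), whereas NOTCH2 had 5.62 FPKM in Jurkat against 24.9 in TALL104 (log2 ratio -1.97). Ligands and coactivators were on the other side: the ligand DLL1 had 0.0906 FPKM in Jurkat against 29.9 in TALL104 (log2 ratio -4.82), the ligand JAG2 had 0.795 FPKM in Jurkat against 6.49 in TALL104 (log2 ratio -2.06), and the coactivator genes MAML3 and MAML2 had log2 ratios of -3.02 and -2.94. The processing enzymes were near equal, with ADAM10 at 36.5 FPKM in Jurkat against 41.3 in TALL104 (log2 ratio -0.18) and APH1A at 31.6 FPKM in Jurkat against 28.7 in TALL104 (log2 ratio 0.14).

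Transcription factors of T-cell identity showed an exchange within the ID family, whose members block basic helix-loop-helix factors. ID2, which innate-like and effector lymphocytes need, had 2.46 FPKM in Jurkat against 126 in TALL104 (log2 ratio -5.199). ID1 had 15.7 FPKM in Jurkat against 0.143 in TALL104 (log2 ratio 3.87), and ID3, which rises after thymic selection, had 36.9 FPKM in Jurkat against 2.34 in TALL104 (log2 ratio 3.51). LEF1, a factor of thymocytes and naive T cells, had 141 FPKM in Jurkat against 18.4 in TALL104 (log2 ratio 2.87), and KLF2, which keeps T cells circulating, had 6.33 FPKM in Jurkat against 0.03496 in TALL104 (log2 ratio 2.82, 1 read in TALL104, FPKM ratio 181, interval 32.1 to 7178). ZBTB16, the factor PLZF of innate-like T cells, had 0.3203 FPKM in Jurkat against 16.5 in TALL104 (log2 ratio -3.73), and ZBTB7B, the factor ThPOK of the CD4 lineage, had 0.21005 FPKM in Jurkat against 10.2 in TALL104 (log2 ratio -3.21), so this CD4-lineage factor was the higher in the CD8-type line. IKZF3 had 2.02 FPKM in Jurkat against 21.3 in TALL104 (log2 ratio -2.88), while ETS1, the most abundant factor of the list in TALL104, had 132 FPKM in Jurkat against 168 in TALL104 (log2 ratio -0.35) and did not differ 2-fold. The median of the 34 factors was 0.15, near that of all genes.

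**Figure D3:**
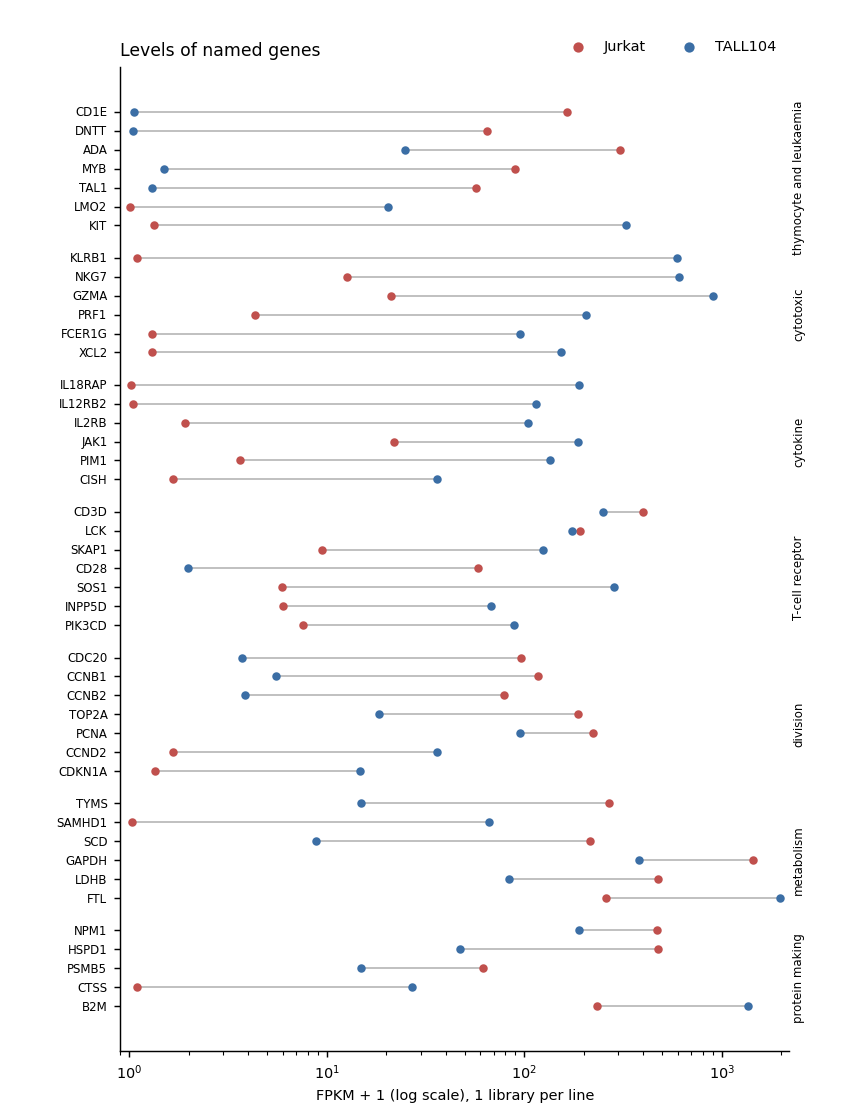
Levels of 44 named genes in Jurkat (red) and TALL104 (blue) as FPKM + 1 on a log scale, 1 library per line, grouped by role. TAL1 and LMO2 lie on opposite sides, as do CCNB1 and CCND2, LCK is near equal, and CD3D is higher in Jurkat but within 2-fold.

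The cytotoxic programme lay in TALL104. Of 23 genes of granzymes, perforin and other granule proteins, 21 were higher in TALL104 and 0 in Jurkat, and their summed FPKM was 1.08% of the library in TALL104 against 0.0561% in Jurkat. GZMA, a granule protease, had 20.3 FPKM in Jurkat (18.7 to 21.9) against 901 in TALL104 (889.8 to 913), log2 ratio -5.41 and was the highest gene of the list in both lines. PRF1, which forms the pore that lets granzymes in, had 3.35 FPKM in Jurkat against 204 in TALL104 (log2 ratio -5.56). GZMK, another granule protease, had 2.58 FPKM in Jurkat against 83.1 in TALL104 (log2 ratio -4.55), and CST7, a protease inhibitor of the granule, had 10.8 FPKM in Jurkat against 256 in TALL104 (log2 ratio -4.44). GZMA and NKG7 were above 10 FPKM in Jurkat too, so part of the granule list was expressed in both lines at very different levels.

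All 17 measured NK receptors and adaptors were higher in TALL104, and the other 10 of 27 were below 1 FPKM in both lines. The adaptors carry the activating motifs on which the receptors depend. FCER1G, the Fc receptor gamma chain, had 0.298 FPKM in Jurkat against 94.5 in TALL104 (log2 ratio -6.201). HCST, the adaptor DAP10, had 15.7 FPKM in Jurkat against 164 in TALL104 (log2 ratio -3.31), and TYROBP, the adaptor DAP12, had 0.0317 FPKM in Jurkat against 33.96 in TALL104 (log2 ratio -5.08, 1 read in Jurkat, FPKM ratio 1071, interval 192 to 42360.000). The receptor NCR1, known as NKp46, had 0.0152 FPKM in Jurkat against 33.5 in TALL104 (log2 ratio -5.09, 1 read in Jurkat, FPKM ratio 2204, interval 395 to 87096). KIR3DL2, an inhibitory receptor that recognises HLA, had 0.153 FPKM in Jurkat against 45.4 in TALL104 (log2 ratio -5.33), and because KIR genes are near copies of each other its reads may belong to a relative.

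Effector transcription factors were higher in TALL104 in 17 of 22 cases. BHLHE40, which supports cytokine production, had 1.62 FPKM in Jurkat against 117 in TALL104 (log2 ratio -5.49). KLF6 had 3.89 FPKM in Jurkat against 81.3 in TALL104 (log2 ratio -4.07), MAF had 0.0288 FPKM in Jurkat against 25.2 in TALL104 (log2 ratio -4.67), and AHR, the receptor for aromatic ligands, had 0.00432 FPKM in Jurkat against 23.8 in TALL104 (log2 ratio -4.62, 1 read in Jurkat, FPKM ratio 5506, interval 988 to 217521). The exception was BATF3, better known from dendritic cells, with 6.33 FPKM in Jurkat against 0.585 in TALL104 (log2 ratio 2.21).

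Secreted factors went further in the same direction. All 18 measured chemokine and cytokine genes were higher in TALL104. XCL1 and XCL2 attract cross-presenting dendritic cells and are near copies of each other. XCL1 had 0.0421 FPKM in Jurkat against 112 in TALL104 (log2 ratio -6.76, 2 reads in Jurkat, FPKM ratio 2656, interval 735 to 21939), and XCL2 had 0.305 FPKM in Jurkat against 153 in TALL104 (log2 ratio -6.88), and reads may have passed between them. TNFSF14, known as LIGHT, had 0.0894 FPKM in Jurkat against 106 in TALL104 (log2 ratio -6.61), and LTB, the lymphotoxin beta chain, had 1.37 FPKM in Jurkat against 217 in TALL104 (log2 ratio -6.52). IL32, a cytokine of activated T and NK cells, had 15.3 FPKM in Jurkat against 449 in TALL104 (log2 ratio -4.79) and was the highest of the list. Of the 38 genes listed, 3 chemokine symbols could not be matched to a gene identifier, so their levels are not given here.

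Homing receptors leaned to TALL104. On the side of Jurkat, S1PR1, which guides T cells out of lymph nodes, had 15.6 FPKM in Jurkat against a listed 0 in TALL104. Receptors for inflamed tissue were on the other side: CCR2 had 0.146 FPKM in Jurkat against 78.4 in TALL104 (log2 ratio -6.11), and CXCR6 had 66.6 FPKM in TALL104 against a listed 0 in Jurkat. The prostaglandin receptors were split. PTGER2 had 66.3 FPKM in TALL104 against a listed 0 in Jurkat, whereas PTGER4 had 15.4 FPKM in Jurkat against 2.86 in TALL104 (log2 ratio 2.08). CCR4, a receptor of helper T cells, had 5.09 FPKM in Jurkat against 0.616 in TALL104 (log2 ratio 1.91). CXCR4, the receptor shared by most lymphocytes, had 134 FPKM in Jurkat against 94.9 in TALL104 (log2 ratio 0.49), within 2-fold. The list as a whole had 5 genes higher in Jurkat and 15 in TALL104 of 21.

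Cytokine receptors, JAKs and STATs were higher in TALL104 in 25 of 32 cases, and in Jurkat in 0. The interleukin-18 receptor chains had the largest differences. IL18RAP had 0.0194 FPKM in Jurkat against 188 in TALL104 (log2 ratio -7.53, 2 reads in Jurkat, FPKM ratio 9688, interval 2682 to 80008), and IL18R1 had 0.0199 FPKM in Jurkat against 60.4 in TALL104 (log2 ratio -5.91, 3 reads in Jurkat, FPKM ratio 3036, interval 1039 to 14726). IL12RB2, the signalling chain for interleukin-12, had 0.0408 FPKM in Jurkat against 114 in TALL104 (log2 ratio -6.79). IL2RB, the chain shared by the receptors for interleukin-2 and 15, had 0.911 FPKM in Jurkat against 104 in TALL104 (log2 ratio -5.77), whereas IL2RG, the common gamma chain, had 106 FPKM in Jurkat against 203 in TALL104 (log2 ratio -0.93). The kinase JAK1, which pairs with IL2RB, had 21.04 FPKM in Jurkat against 187 in TALL104 (log2 ratio -3.09). The gamma chain was therefore within 2-fold, and IL2RB and its kinase JAK1 were not.

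Feedback genes of cytokine signalling leaned to TALL104, with 10 of 20 higher in TALL104 and 1 in Jurkat. PIM1, a survival kinase, had 2.64 FPKM in Jurkat against 134 in TALL104 (log2 ratio -5.21), CISH, an inhibitor of STAT5 signalling, had 0.675 FPKM in Jurkat against 35.3 in TALL104 (log2 ratio -4.44), and SOCS1, an inhibitor of JAK kinases, had 0.258 FPKM in Jurkat against 12.7 in TALL104 (log2 ratio -3.44). PIAS2, a ligase that acts on STATs, had 5.34 FPKM in Jurkat against 0.936 in TALL104 (log2 ratio 1.71). PTPN1, a phosphatase of JAKs, was near equal with 32.5 FPKM in Jurkat against 44.1 in TALL104 (log2 ratio -0.43). STAT dimers recognise the palindrome TTCNNNGAA, and the CISH promoter is shown because it held 4 such matches in its 300-base window. Promoter windows came from RefSeq and run from 250 bases before to 50 bases after the annotated start. The CISH window lies at chr3:50611725-50612024 on the minus strand of GRCh38.p14, and its matches are in capitals:
CISH: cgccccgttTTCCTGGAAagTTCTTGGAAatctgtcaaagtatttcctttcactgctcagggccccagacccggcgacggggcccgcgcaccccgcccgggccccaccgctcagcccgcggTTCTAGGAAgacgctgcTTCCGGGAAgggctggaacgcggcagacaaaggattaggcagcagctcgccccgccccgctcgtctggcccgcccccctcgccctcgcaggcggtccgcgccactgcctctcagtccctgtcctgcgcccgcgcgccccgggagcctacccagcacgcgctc
The palindrome was found in 7.66% of all 35116 promoter windows, in 6.15% of those of measured genes and in 4 of 23 windows of the feedback list. Of the other lists searched, mitosis had it in 6 of 57 windows, replication in 6 of 61 and granule genes in 2 of 30. It was in 2 of 53 windows of the cytokine receptor list, so the list with the larger median had the smaller share. A match is a run of letters and no measurement of binding.

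NF-kappa-B and the early-response factors leaned the same way. Of 28 NF-kappa-B genes, 14 were higher in TALL104 and 0 in Jurkat. NFKBIZ, an inducible regulator, had 0.0926 FPKM in Jurkat against 23.1 in TALL104 (log2 ratio -4.46). RELB had 0.654 FPKM in Jurkat against 7.53 in TALL104 (log2 ratio -2.37), TRAF1 had 0.7802 FPKM in Jurkat against 8.31 in TALL104 (log2 ratio -2.39), and CYLD, an enzyme that ends the signal, had 5.25 FPKM in Jurkat against 31.4 in TALL104 (log2 ratio -2.37). NFKB1 was within 2-fold with 16.4 FPKM in Jurkat against 26.3 in TALL104 (log2 ratio -0.65). Among the AP-1, EGR and NR4A list, 12 of 19 were higher in TALL104. BTG1 and BTG2 slow cell division. BTG1 had 9.66 FPKM in Jurkat against 121 in TALL104 (log2 ratio -3.52), and BTG2 had 3.84 FPKM in Jurkat against 77.9 in TALL104 (log2 ratio -4.03). ZFP36, which destabilises cytokine messenger RNAs, had 4.08 FPKM in Jurkat against 34.5 in TALL104 (log2 ratio -2.81), and EGR2 had 0.0546 FPKM in Jurkat against 5.28 in TALL104 (log2 ratio -2.57). MAFK was the exception with 13.3 FPKM in Jurkat against 5.67 in TALL104 (log2 ratio 1.104).

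Interferon-stimulated genes leaned to TALL104, with 5 higher in Jurkat and 21 in TALL104 of 42. TRIM22, an antiviral ligase, had 0.7402 FPKM in Jurkat against 97.8 in TALL104 (log2 ratio -5.83). IFITM1 had 13.2 FPKM in Jurkat against 326 in TALL104 (log2 ratio -4.53) and IFITM2 had 18.1 FPKM in Jurkat against 121 in TALL104 (log2 ratio -2.67), and these membrane proteins are close copies that may exchange reads. The guanylate-binding proteins GBP2 and GBP5, which act on intracellular microbes, had log2 ratios of -4.43 and -3.59. On the side of Jurkat, USP18, which removes the ubiquitin-like ISG15, had 9.99 FPKM in Jurkat against 0.646 in TALL104 (log2 ratio 2.74), and IFIT1 had 2.12 FPKM in Jurkat against 0.0229 in TALL104 (log2 ratio 1.61, 2 reads in TALL104, FPKM ratio 92.5, interval 25.3 to 768). IFNGR2, the signalling chain of the interferon-gamma receptor, had 11.9 FPKM in Jurkat against 0.3099 in TALL104 (log2 ratio 3.296). IFI6 had 19.1 FPKM in Jurkat against 7.95 in TALL104 (log2 ratio 1.17).

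The core of the T-cell receptor was shared. Of 29 genes of the CD3 complex and proximal signalling, 0 were higher in Jurkat and 9 in TALL104. CD3D had 400.1 FPKM in Jurkat (393 to 407) against 249.8 in TALL104 (244 to 256), log2 ratio 0.68, CD3E had 166 FPKM in Jurkat against 233 in TALL104 (log2 ratio -0.48), and the kinase LCK had 190.1 FPKM in Jurkat against 173 in TALL104 (log2 ratio 0.14). Around this core, adaptors and a kinase differed. TXK, a Tec-family kinase, had 0.596 FPKM in Jurkat against 43.4 in TALL104 (log2 ratio -4.798), and SKAP1, an adaptor that couples the receptor to integrins, had 8.48 FPKM in Jurkat against 124 in TALL104 (log2 ratio -3.72). UBASH3A, a negative regulator, had 8.43 FPKM in Jurkat against 53.6 in TALL104 (log2 ratio -2.53), and PAG1, which holds the inhibitory kinase CSK at the membrane, had 6.76 FPKM in Jurkat against 35.7 in TALL104 (log2 ratio -2.24).

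Surface glycoproteins of T cells differed more, with 5 higher in Jurkat and 15 in TALL104 of 28. CD28, the main costimulatory receptor, had 57.4 FPKM in Jurkat against 0.989 in TALL104 (log2 ratio 4.87). CD2, an adhesion receptor, had 86.03 FPKM in Jurkat against 15.6 in TALL104 (log2 ratio 2.39), and THY1 had 6.52 FPKM in Jurkat against 0.0179 in TALL104 (log2 ratio 2.89, 3 reads in TALL104, FPKM ratio 365, interval 125 to 1773). CD82, a tetraspanin, had 33.8 FPKM in Jurkat against 9.29 in TALL104 (log2 ratio 1.76). On the other side, CD44, a hyaluronan receptor of activated cells, had 0.0257 FPKM in Jurkat against 76.4 in TALL104 (log2 ratio -6.24), and SLAMF7, a receptor of NK and plasma cells, had 0.162 FPKM in Jurkat against 147 in TALL104 (log2 ratio -6.996). CD52 had 16.2 FPKM in Jurkat against 619.8 in TALL104 (log2 ratio -5.17), and CD96, a receptor for nectin-family ligands, had 14.3 FPKM in Jurkat against 541 in TALL104 (log2 ratio -5.15). PTPRC, the phosphatase CD45, was abundant in both lines with 108 FPKM in Jurkat against 274 in TALL104 (log2 ratio -1.34).

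Coreceptors and checkpoint receptors were few. Of 20 listed, 10 were measured, 8 of them higher in TALL104 and 1 in Jurkat. CD8B, the second chain of the CD8 coreceptor, had 1.23 FPKM in Jurkat against 0.114 in TALL104 (log2 ratio 1.004), opposite to CD8A. The costimulator ICOS had 0.3696 FPKM in Jurkat against 17.2 in TALL104 (log2 ratio -3.74). Of the tumour necrosis factor receptors, TNFRSF14 had 2.32 FPKM in Jurkat against 27.7 in TALL104 (log2 ratio -3.11), TNFRSF25 had 0.506 FPKM in Jurkat against 12.2 in TALL104 (log2 ratio -3.14), TNFRSF18 had 0.04197 FPKM in Jurkat against 7.11 in TALL104 (log2 ratio -2.96, 1 read in Jurkat, FPKM ratio 169, interval 29.9 to 6736) and TNFRSF4 had 1.77 FPKM in Jurkat against 0.799 in TALL104 (log2 ratio 0.62). The inhibitory receptors followed: HAVCR2, known as TIM-3, had 0.348 FPKM in Jurkat against 8.93 in TALL104 (log2 ratio -2.88), LAIR1 had 12.8 FPKM in Jurkat against 29.5 in TALL104 (log2 ratio -1.15), and CD244 had 2.22 FPKM in Jurkat against 14.8 in TALL104 (log2 ratio -2.298).

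Downstream of the receptor, phosphoinositide signalling differed at its opposing enzymes. PIK3CD, the leukocyte PI3 kinase subunit, had 6.598 FPKM in Jurkat against 87.4 in TALL104 (log2 ratio -3.54). INPP5D, the phosphatase SHIP1 that removes its product, had 5.004 FPKM in Jurkat (4.73 to 5.29) against 67.3 in TALL104 (66.1 to 68.4), log2 ratio -3.51. INPP4B, a phosphatase that acts after SHIP1, had 0.00609 FPKM in Jurkat against 27.99 in TALL104 (log2 ratio -4.85, 3 reads in Jurkat, FPKM ratio 4593, interval 1571 to 22277), and PIK3IP1, an inhibitor of the kinase, had 0.385 FPKM in Jurkat against 27.02 in TALL104 (log2 ratio -4.34). INPP4A had 14.9 FPKM in Jurkat against 56.4 in TALL104 (log2 ratio -1.85). PIK3R3, a regulatory subunit, was higher in Jurkat with 21.8 FPKM in Jurkat against 2.66 in TALL104 (log2 ratio 2.64), as was the phosphatase PHLPP1 with a log2 ratio of 1.29. In total, 3 of 29 genes were higher in Jurkat and 12 in TALL104, so both the kinase and the phosphatases of the pathway were among those higher in TALL104.

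In the RAS and MAP kinase pathway SOS1 stood out. SOS1, the exchange factor that loads RAS with GTP, had 4.94 FPKM in Jurkat (4.703 to 5.19) against 284 in TALL104 (282 to 286), log2 ratio -5.58, the highest value of the list in either line. RASGRP1, the exchange factor driven by diacylglycerol, had 22.1 FPKM in Jurkat against 100.4 in TALL104 (log2 ratio -2.13). Inhibitors were found on both sides. DUSP6, a phosphatase of ERK, had 0.354 FPKM in Jurkat against 32.3 in TALL104 (log2 ratio -4.62), DUSP4 had 0.0119 FPKM in Jurkat against 6.45 in TALL104 (log2 ratio -2.88, 3 reads in Jurkat, FPKM ratio 543, interval 185 to 2635), and RASAL3, which switches RAS off, had 4.45 FPKM in Jurkat against 65.1 in TALL104 (log2 ratio -3.601). SPRED1 had 2.77 FPKM in Jurkat against 0.04698 in TALL104 (log2 ratio 1.85), SPRY2 had 2.58 FPKM in Jurkat against 0.225 in TALL104 (log2 ratio 1.55), RASA3 had 15.7 FPKM in Jurkat against 4.17 in TALL104 (log2 ratio 1.69), and DUSP2 had 7.17 FPKM in Jurkat against 2.32 in TALL104 (log2 ratio 1.3000). The list had 6 genes higher in Jurkat and 13 in TALL104 of 36.

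Calcium signalling leaned to TALL104, with a median of -0.43. NFATC2, the transcription factor released by calcineurin, had 6.31 FPKM in Jurkat against 30.2 in TALL104 (log2 ratio -2.09), and PPP3CA, a catalytic subunit of calcineurin, had 2.43 FPKM in Jurkat against 21.3 in TALL104 (log2 ratio -2.705). Its inhibitors were split, RCAN3 with 10.8 FPKM in Jurkat against 57.5 in TALL104 (log2 ratio -2.31) and RCAN1 with 6.09 FPKM in Jurkat against 2.54 in TALL104 (log2 ratio 1.001). CALM3, a calmodulin gene, had 102 FPKM in Jurkat against 53.1 in TALL104 (log2 ratio 0.93), within 2-fold. The pump ATP2A3 had 78.4 FPKM in Jurkat against 58.05 in TALL104 (log2 ratio 0.43). Of 25 genes, 1 was higher in Jurkat and 9 in TALL104.

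Genes of cell division were higher in Jurkat almost throughout. Of 50 mitosis genes, 48 were higher in Jurkat and 0 in TALL104, and together they held 1.002% of the FPKM in Jurkat against 0.126% in TALL104. CDC20, an activator of the anaphase-promoting complex, had 95.4 FPKM in Jurkat (93.1 to 97.7) against 2.72 in TALL104 (2.31 to 3.18), log2 ratio 4.696. The B-type cyclins followed, CCNB1 with 116 FPKM in Jurkat against 4.51 in TALL104 (log2 ratio 4.41) and CCNB2 with 77.99 FPKM in Jurkat against 2.88 in TALL104 (log2 ratio 4.35). MYBL2, a factor of the complex that switches on G2 and M genes, had 87.2 FPKM in Jurkat against 3.37 in TALL104 (log2 ratio 4.34). TPX2, a spindle assembly factor, had 122 FPKM in Jurkat against 8.02 in TALL104 (log2 ratio 3.77), UBE2S, which extends ubiquitin chains in mitosis, had 126 FPKM in Jurkat against 9.801 in TALL104 (log2 ratio 3.56), and STMN1, a tubulin-binding protein, had 200.3 FPKM in Jurkat against 12.4 in TALL104 (log2 ratio 3.91). In TALL104 the genes named here still had 2.72 to 12.4 FPKM.

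Promoters of such genes are known for CCAAT boxes and, near the start, for the cell-cycle homology region TTTGAA. As examples, 2 windows that held both are shown. The CDC20 window lies at chr1:43358731-43359030 on the plus strand and the CCNB2 window at chr15:59104896-59105195 on the plus strand of GRCh38.p14, with CCAAT and TTTGAA on either strand in capitals:
CDC20: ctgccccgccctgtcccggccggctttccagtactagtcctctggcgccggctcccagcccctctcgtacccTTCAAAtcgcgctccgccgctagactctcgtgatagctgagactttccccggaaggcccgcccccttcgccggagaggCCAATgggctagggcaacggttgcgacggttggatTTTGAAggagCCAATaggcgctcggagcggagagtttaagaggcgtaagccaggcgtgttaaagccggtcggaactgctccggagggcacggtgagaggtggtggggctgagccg
CCNB2: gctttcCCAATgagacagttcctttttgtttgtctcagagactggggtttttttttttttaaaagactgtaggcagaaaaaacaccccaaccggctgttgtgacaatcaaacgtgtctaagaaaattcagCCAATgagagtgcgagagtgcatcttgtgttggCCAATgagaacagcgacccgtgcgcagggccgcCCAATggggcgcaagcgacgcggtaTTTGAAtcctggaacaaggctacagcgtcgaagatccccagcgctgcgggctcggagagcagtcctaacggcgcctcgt
CCAAT was found in 38 of 57 windows of mitosis genes (66.7%) against 34.6% of all windows. TTTGAA was found in 32 of them (56.1%) against 15.2% of all windows and 10.5% of those of measured genes. Neither motif was confined to this list. CCAAT was also in 33 of 61 windows of replication genes (54.1%). TTTGAA was also in 8 of 30 windows of the granule list (26.7%), which leaned to TALL104, in 9 of 53 of the cytokine receptor list and in 1 of 23 of the feedback list. Windows matched 43 of the 50 mitosis genes, some with several starts.

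DNA replication genes were higher in Jurkat in 43 of 53 cases. TOP2A, which untangles sister chromosomes, had 187 FPKM in Jurkat against 17.4 in TALL104 (log2 ratio 3.35). PCNA, the sliding clamp, had 223 FPKM in Jurkat (219 to 227) against 94.7 in TALL104 (91.7 to 97.7), log2 ratio 1.23, so TALL104 held a substantial level of it. The helicase subunit MCM7 had 141 FPKM in Jurkat against 20.3 in TALL104 (log2 ratio 2.73), its loading partner MCM10 had 29.8 FPKM in Jurkat against 1.27 in TALL104 (log2 ratio 3.76), and CDC45, part of the active helicase, had 36.3 FPKM in Jurkat against 2.43 in TALL104 (log2 ratio 3.44). GINS1 had 34.2 FPKM in Jurkat against 1.38 in TALL104 (log2 ratio 3.89), and RFC3, a clamp loader subunit, had 47.8 FPKM in Jurkat against 3.07 in TALL104 (log2 ratio 3.59). The 1 gene higher in TALL104 was POLD4, a small subunit of DNA polymerase delta, with 2.62 FPKM in Jurkat against 13.9 in TALL104 (log2 ratio -2.04). E2F factors, which switch on this set before S phase, recognise TTTGGCGC and TTTCCCGC. The window of MCM6, a further helicase subunit with 99.5 FPKM in Jurkat against 17.1 in TALL104 (log2 ratio 2.48), is shown for its 2 matches, and lies at chr2:135876394-135876693 on the minus strand of GRCh38.p14, matches in capitals:
MCM6: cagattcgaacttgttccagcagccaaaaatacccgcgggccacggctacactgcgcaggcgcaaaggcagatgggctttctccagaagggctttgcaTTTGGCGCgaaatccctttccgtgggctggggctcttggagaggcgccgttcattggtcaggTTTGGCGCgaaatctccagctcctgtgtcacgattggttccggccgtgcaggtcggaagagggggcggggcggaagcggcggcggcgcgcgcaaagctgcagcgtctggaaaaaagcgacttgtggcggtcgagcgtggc
These letters were found in 20 of 61 windows of replication genes (32.8%) and in 3 of 57 of mitosis genes. They were in 2.27% of all windows and 3.48% of those of measured genes. TTTGAA showed the opposite order, with 3 windows of the replication list.

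Most regulators of G1 were higher in Jurkat. Of 24 measured, 15 were higher in Jurkat and 3 in TALL104. CDK6, the kinase that starts G1, had 235 FPKM in Jurkat against 31.8 in TALL104 (log2 ratio 2.84), and CDC25A, the phosphatase that activates CDK2, had 35.2 FPKM in Jurkat against 1.02 in TALL104 (log2 ratio 4.16). E2F2 had 14.2 FPKM in Jurkat against 1.01 in TALL104 (log2 ratio 2.92), CDKN3 had 29.6 FPKM in Jurkat against 1.58 in TALL104 (log2 ratio 3.57), and RB1, the retinoblastoma protein, had 133 FPKM in Jurkat against 32.4 in TALL104 (log2 ratio 2.01). The 3 genes higher in TALL104 were CCND2, a D-type cyclin, with 0.675 FPKM in Jurkat against 35.1 in TALL104 (log2 ratio -4.43), CDKN1A, the inhibitor p21, with 0.356 FPKM in Jurkat against 13.8 in TALL104 (log2 ratio -3.45), and RBL2, the retinoblastoma relative of resting cells, with 16.6 FPKM in Jurkat against 105 in TALL104 (log2 ratio -2.59). A kinase and a cyclin that can work together were thus higher in different lines.

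The targets of p53 were the counterpart of these lists, with 19 of 26 higher in TALL104 and 1 in Jurkat. SESN1, which restrains growth signalling, had 3.19 FPKM in Jurkat against 96.4 in TALL104 (log2 ratio -4.54), DDB2, a DNA damage sensor, had 18.8 FPKM in Jurkat against 65.8 in TALL104 (log2 ratio -1.75), and GADD45B had 0.995 FPKM in Jurkat against 15.4 in TALL104 (log2 ratio -3.04). PMAIP1, the cell-death protein NOXA, was the exception with 17.01 FPKM in Jurkat against 5.07 in TALL104 (log2 ratio 1.57). MYC itself had 96.8 FPKM in Jurkat (94.9 to 98.7) against 20.4 in TALL104 (19.4 to 21.4), log2 ratio 2.19, and MYCN had 3.89 FPKM in Jurkat against 0.108 in TALL104 (log2 ratio 2.14). Of its antagonists, MXD1 had 1.19 FPKM in Jurkat against 6.38 in TALL104 (log2 ratio -1.75) and MXD4 had 4.58 FPKM in Jurkat against 11.9 in TALL104 (log2 ratio -1.21), while the partner MAX was near equal with 30.7 FPKM in Jurkat against 25.1 in TALL104 (log2 ratio 0.28).

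DNA repair genes leaned to Jurkat. Of 50 genes, 22 were higher in Jurkat and 5 in TALL104. The 4 with the largest ratios in Jurkat act in recombination and at replication forks: RAD54L had 33.5 FPKM in Jurkat against 1.63 in TALL104 (log2 ratio 3.72), CHEK1, the checkpoint kinase of S phase, had 25.9 FPKM in Jurkat against 1.47 in TALL104 (log2 ratio 3.45), EXO1 had 20.5 FPKM in Jurkat against 1.63 in TALL104 (log2 ratio 3.03), and XRCC2 had 14.7 FPKM in Jurkat against 0.945 in TALL104 (log2 ratio 3.01). The end-joining proteins XRCC6 and XRCC5 form the Ku dimer. XRCC6 had 278 FPKM in Jurkat against 90.3 in TALL104 (log2 ratio 1.61), and XRCC5 had 201 FPKM in Jurkat against 70.4 in TALL104 (log2 ratio 1.503), nearly the same ratio. The mismatch repair gene MLH3 went the other way with 0.0619 FPKM in Jurkat against 4.47 in TALL104 (log2 ratio -2.37). ATM, the kinase that senses double-strand breaks, had 7.89 FPKM in Jurkat against 48.8 in TALL104 (log2 ratio -2.49).

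Nucleotide metabolism was higher in Jurkat in 31 of 46 genes. TYMS, which makes thymidylate, had 267 FPKM in Jurkat (263 to 270.1) against 13.9 in TALL104 (13.1 to 14.8), log2 ratio 4.16, PAICS, a purine synthesis enzyme, had 194 FPKM in Jurkat against 11.7 in TALL104 (log2 ratio 3.94), and RRM2, a subunit of ribonucleotide reductase, had 116 FPKM in Jurkat against 8.89 in TALL104 (log2 ratio 3.57). Its relative RRM2B, which serves resting cells, had 7.35 FPKM in Jurkat against 25.8 in TALL104 (log2 ratio -1.68). SAMHD1, which breaks down deoxynucleotides, had 0.0331 FPKM in Jurkat against 65.3 in TALL104 (log2 ratio -6.003). Enzymes that make deoxynucleotides and the enzyme that destroys them were therefore at opposite ends of the list.

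In central carbon metabolism differences were smaller. Of 39 glycolysis genes, 14 were higher in Jurkat and 4 in TALL104, with a median of 0.72. GAPDH had 1435 FPKM in Jurkat against 381 in TALL104 (log2 ratio 1.91), LDHB, a lactate dehydrogenase subunit, had 473 FPKM in Jurkat against 82.7 in TALL104 (log2 ratio 2.503), and ENO1 had 408 FPKM in Jurkat against 284 in TALL104 (log2 ratio 0.52). Transporters were on both sides: the lactate transporter SLC16A1 had 36.3 FPKM in Jurkat against 2.16 in TALL104 (log2 ratio 3.56) and its relative SLC16A3 had 0.984 FPKM in Jurkat against 3.85 in TALL104 (log2 ratio -1.29), whereas the glucose transporter SLC2A3 had 3.01 FPKM in Jurkat against 54.7 in TALL104 (log2 ratio -3.798). HK1 and PFKFB3 were higher in TALL104, with log2 ratios of -1.15 and -1.39. Among the arrestin relatives, ARRDC3 had 2.302 FPKM in Jurkat against 43.7 in TALL104 (log2 ratio -3.76). In the tricarboxylic acid cycle 6 of 26 were higher in Jurkat, near the background of 22.5%. They included ACO1, an aconitase that also binds iron-response elements, with 9.77 FPKM in Jurkat against 1.25 in TALL104 (log2 ratio 2.26), and IDH2 with 152 FPKM in Jurkat against 32.1 in TALL104 (log2 ratio 2.21). DLST was higher in TALL104 with 14.3 FPKM in Jurkat against 30.1 in TALL104 (log2 ratio -1.02).

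In the respiratory chain the nuclear-encoded subunits leaned to Jurkat, and most mitochondrially encoded genes were within 2-fold. Of 75 nuclear-encoded subunits measured, 28 were higher in Jurkat and 0 in TALL104. The summed FPKM of all 85 subunits matched was 1.38% in Jurkat against 0.7402% in TALL104. ATP5F1B, the catalytic beta subunit of ATP synthase, had 417 FPKM in Jurkat against 182 in TALL104 (log2 ratio 1.19), and NDUFAB1, the acyl carrier protein of complex I, had 51.9 FPKM in Jurkat against 13.7 in TALL104 (log2 ratio 1.85). Of the 13 protein genes of the mitochondrial genome, 2 were higher in TALL104 and 1 in Jurkat, with a median of -0.37. Neither count was above the background of 18.6% in TALL104 and 22.5% in Jurkat. MT-CO1, a subunit of cytochrome oxidase, had 3808 FPKM in Jurkat against 12492 in TALL104 (log2 ratio -1.71), and MT-ND5 had 683 FPKM in Jurkat against 1957 in TALL104 (log2 ratio -1.52). MT-ND6 differed from all the others, with 1669 FPKM in Jurkat (1650.4 to 1688) against 188 in TALL104 (181 to 195), log2 ratio 3.14, and it is the protein gene that lies on the other strand of the mitochondrial genome. The remaining 10 had log2 ratios from -0.92 for MT-ND1 to 0.33 for MT-ATP8, which shares bases with MT-ATP6. Nuclear copies of mitochondrial sequence can take or give reads to these genes.

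**Figure D4:**
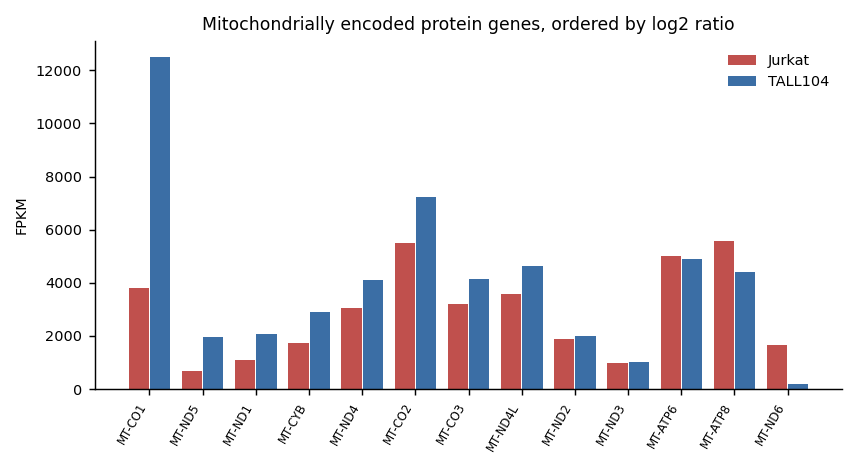
FPKM of the 13 protein genes of the mitochondrial genome in Jurkat (red bars) and TALL104 (blue bars), ordered from the lowest to the highest log2 ratio, 1 library per line. MT-CO1 is the tallest bar, at 12492 FPKM in TALL104, and MT-ND6, at the right end, is the one with a clearly taller bar in Jurkat.

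Lipid and amino-acid metabolism were higher in Jurkat at several synthetic steps. SCD, the desaturase that makes monounsaturated fatty acids, had 213 FPKM in Jurkat (211 to 215) against 7.82 in TALL104 (7.38 to 8.27), log2 ratio 4.603. INSIG1, which holds the sterol sensor in place, had 117 FPKM in Jurkat against 16.03 in TALL104 (log2 ratio 2.79), FDFT1, the first enzyme committed to sterols, had 100.2 FPKM in Jurkat against 27.9 in TALL104 (log2 ratio 1.81), and SREBF1, a master factor of lipid synthesis, had 14.3 FPKM in Jurkat against 1.58 in TALL104 (log2 ratio 2.57). MYLIP, which degrades the LDL receptor, had 0.796 FPKM in Jurkat against 9.06 in TALL104 (log2 ratio -2.49), and the cholesterol exporters of the lysosome NPC1 and NPC2 had log2 ratios of -1.72 and -1.44. Of 34 genes, 14 were higher in Jurkat and 4 in TALL104. The list of amino-acid stress response and transporters had 11 of 32 higher in Jurkat and 5 in TALL104, with a median of 0.35. Serine and proline synthesis leaned the same way, PSAT1 with 87.7 FPKM in Jurkat against 15.7 in TALL104 (log2 ratio 2.41), PHGDH with 20.1 FPKM in Jurkat against 4.24 in TALL104 (log2 ratio 2.01) and PYCR1 with 13.7 FPKM in Jurkat against 2.08 in TALL104 (log2 ratio 2.25). ASNS, asparagine synthetase, went the other way with 3.92 FPKM in Jurkat against 11.7 in TALL104 (log2 ratio -1.37), as did the stress factor DDIT3 with 7.03 FPKM in Jurkat against 33.9 in TALL104 (log2 ratio -2.12), while ATF4, which drives both, had 172 FPKM in Jurkat against 151 in TALL104 (log2 ratio 0.19). Of 20 tRNA synthetases, 6 were higher in Jurkat and 0 in TALL104, led by both subunits of the phenylalanine enzyme, FARSB with 43.9 FPKM in Jurkat against 10.2 in TALL104 (log2 ratio 2.0003) and FARSA with 97.98 FPKM in Jurkat against 26.1 in TALL104 (log2 ratio 1.87).

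The machinery that makes ribosomes differed more than the ribosome. Of 43 biogenesis genes, 28 were higher in Jurkat and 0 in TALL104, with a median of 1.27, while 8 of 85 ribosomal protein genes were, with a median of 0.40. NPM1, the nucleolar chaperone, had 469.6 FPKM in Jurkat against 188 in TALL104 (log2 ratio 1.31), NCL, nucleolin, had 351 FPKM in Jurkat against 91.2 in TALL104 (log2 ratio 1.93), and GAR1, a subunit of the pseudouridine complex, had 35.8 FPKM in Jurkat against 4.52 in TALL104 (log2 ratio 2.74). Among ribosomal proteins, the paralogues RPL39L and RPL26L1 were highest in ratio, with 35.8 FPKM in Jurkat against 2.26 in TALL104 (log2 ratio 3.495) and 37.96 FPKM in Jurkat against 9.52 in TALL104 (log2 ratio 1.89), and RPS27L, a p53-responsive paralogue, was lowest with 9.101 FPKM in Jurkat against 24.6 in TALL104 (log2 ratio -1.34). RPS27 had 421 FPKM in Jurkat against 718 in TALL104 (log2 ratio -0.77). Ribosomal protein genes have many processed copies in the genome, so their reads are less certain.

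Folding genes outside the secretory pathway leaned to Jurkat, as did the proteasome. Of 38 cytosolic and mitochondrial chaperones, 24 were higher in Jurkat and 1 in TALL104. HSPD1 and HSPE1 form the mitochondrial chaperonin. HSPD1 had 476 FPKM in Jurkat against 46.3 in TALL104 (log2 ratio 3.33), and HSPE1 had 52.8 FPKM in Jurkat against 9.62 in TALL104 (log2 ratio 2.34). TCP1, of the cytosolic chaperonin, had 181 FPKM in Jurkat against 36.9 in TALL104 (log2 ratio 2.26), and HSP90AB1 had 1103 FPKM in Jurkat against 306 in TALL104 (log2 ratio 1.84). The stress-induced HSPA1A, a near copy of its neighbour HSPA1B, was the exception with 0.118 FPKM in Jurkat against 13.5 in TALL104 (log2 ratio -3.697). The proteasome had 14 of 31 genes higher in Jurkat and 0 in TALL104, with PSMB5, the chymotrypsin-like subunit, at 60.7 FPKM in Jurkat against 13.99 in TALL104 (log2 ratio 2.04).

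The secretory and lysosomal lists did not follow. ER folding genes had a median of -0.25, with 2 of 47 higher in Jurkat and 9 in TALL104, the latter near the background of 18.6%. ERN1, the stress sensor IRE1, had 2.45 FPKM in Jurkat against 61.6 in TALL104 (log2 ratio -4.18), and the unfolded-protein response genes DNAJB9 and HERPUD1 had log2 ratios of -2.58 and -1.75. HSPA5, the main ER chaperone, had 141 FPKM in Jurkat against 167 in TALL104 (log2 ratio -0.25), and MZB1, a cochaperone of antibody-forming cells, had 47.7 FPKM in Jurkat against 8.88 in TALL104 (log2 ratio 2.301). Lysosome genes were higher in TALL104 in 19 of 43 cases. CTSS had 0.0952 FPKM in Jurkat against 25.97 in TALL104 (log2 ratio -4.62), CTSD had 15.2 FPKM in Jurkat against 69.9 in TALL104 (log2 ratio -2.13), and CTSW, a protease of cytotoxic cells, had 16.2 FPKM in Jurkat against 119.7 in TALL104 (log2 ratio -2.81). Of the cathepsin family, CTSV was higher in Jurkat with 8.14 FPKM in Jurkat against 0.0205 in TALL104 (log2 ratio 3.16, 1 read in TALL104, FPKM ratio 397, interval 70.9 to 15708), as was the lysosomal protease LGMN with 7.45 FPKM in Jurkat against 0.0814 in TALL104 (log2 ratio 2.97). The autophagy receptor OPTN had 1.62 FPKM in Jurkat against 53.1 in TALL104 (log2 ratio -4.37).

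**Figure D5:**
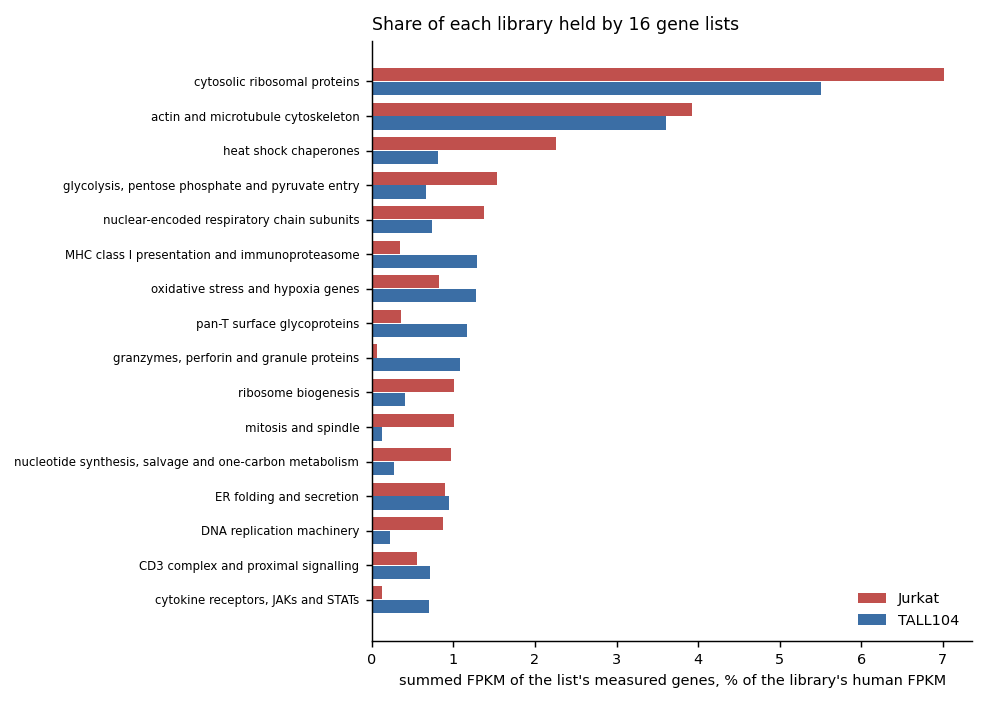
Summed FPKM of 16 gene lists as a percentage of all human FPKM of the library, Jurkat in red and TALL104 in blue. They are the lists with the largest share in either line other than the mitochondrially encoded genes. The sums include list genes under 1 FPKM in both lines, although the axis label names measured genes. Ribosomal proteins hold 7.01% and 5.51%, heat shock chaperones 2.25% and 0.809%, and class I presentation 0.342% and 1.29%.

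Antigen presentation by MHC class I was higher in TALL104 in 12 of 25 genes. B2M, the light chain shared by all class I molecules, had 233 FPKM in Jurkat (231 to 236) against 1351 in TALL104 (1344 to 1359), log2 ratio -2.53. HLA-E, the ligand of the inhibitory NK receptor NKG2A, had 24.8 FPKM in Jurkat against 356 in TALL104 (log2 ratio -3.79), HLA-B had 37.8 FPKM in Jurkat against 439 in TALL104 (log2 ratio -3.502), and HLA-F had 0.798 FPKM in Jurkat against 16.2 in TALL104 (log2 ratio -3.26). Class I genes vary between people and share sequence, so reads may be missed or exchanged between them. The 3 genes higher in Jurkat were CD1D with 21.3 FPKM in Jurkat against a listed 0 in TALL104, ULBP1, a ligand of the NK receptor NKG2D, with 5.22 FPKM in Jurkat against 1.03 in TALL104 (log2 ratio 1.61), and the proteasome activator PSME3 with 54.6 FPKM in Jurkat against 24.8 in TALL104 (log2 ratio 1.104). Class II genes were few, with 7 of 17 genes measured. HLA-DRB1 had 1.96 FPKM in Jurkat against a listed 0 in TALL104, and HLA-DOA had 1.63 FPKM in Jurkat against 0.0176 in TALL104 (log2 ratio 1.37, 2 reads in TALL104, FPKM ratio 92.5, interval 25.3 to 768), while the shared regulators RFX5 and RFXAP had 37.9 FPKM in Jurkat against 19.8 in TALL104 (log2 ratio 0.91) and 13.5 FPKM in Jurkat against 6.36 in TALL104 (log2 ratio 0.98).

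The BCL2 family had 6 genes higher in each line of 17, with a median of 0.02. Those higher in TALL104 included the protective BCL2 with 6.51 FPKM in Jurkat against 37.1 in TALL104 (log2 ratio -2.34), BCL2A1 with 0.185 FPKM in Jurkat against 14.5 in TALL104 (log2 ratio -3.71) and MCL1 with 43.8 FPKM in Jurkat against 144 in TALL104 (log2 ratio -1.696), and the lethal BMF with 1.31 FPKM in Jurkat against 36.2 in TALL104 (log2 ratio -4.01) and BAX with 10.02 FPKM in Jurkat against 64.2 in TALL104 (log2 ratio -2.56). Those higher in Jurkat included BIK with 9.32 FPKM in Jurkat against 0.111 in TALL104 (log2 ratio 3.22, 3 reads in TALL104, FPKM ratio 83.9, interval 28.5 to 409) and BID with 25.9 FPKM in Jurkat against 8.15 in TALL104 (log2 ratio 1.55), both lethal. BCL2L1 was within 2-fold with 24.2 FPKM in Jurkat against 37.9 in TALL104 (log2 ratio -0.62). Death receptors, ligands and caspases leaned to TALL104, with 14 of 31 higher there and 3 in Jurkat. FASLG had 0.122 FPKM in Jurkat against 35.6 in TALL104 (log2 ratio -5.03), its receptor FAS had 8.81 FPKM in Jurkat against 46.1 in TALL104 (log2 ratio -2.27), TNFSF10, known as TRAIL, had 5.97 FPKM in Jurkat against 70.7 in TALL104 (log2 ratio -3.36), and TNFRSF1B, the second receptor for tumour necrosis factor, had 0.145 FPKM in Jurkat against 34.7 in TALL104 (log2 ratio -4.96). The inflammatory caspases CASP1 and CASP4 had 0.0154 FPKM in Jurkat against 14.3 in TALL104 (log2 ratio -3.91, 2 reads in Jurkat, FPKM ratio 925, interval 256 to 7647) and 0.0238 FPKM in Jurkat against 18.5 in TALL104 (log2 ratio -4.25). BIRC5, survivin, which also acts in mitosis, had 37.6 FPKM in Jurkat against 1.28 in TALL104 (log2 ratio 4.08), and TNFRSF21, death receptor 6, had 11.6 FPKM in Jurkat against 0.137 in TALL104 (log2 ratio 3.46).

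Antioxidant genes were found on both sides. PRDX1, which removes peroxide, had 469 FPKM in Jurkat against 66.99 in TALL104 (log2 ratio 2.79), PRDX3, its mitochondrial relative, had 83.5 FPKM in Jurkat against 21.3 in TALL104 (log2 ratio 1.92), and SOD1 had 141 FPKM in Jurkat against 48.5 in TALL104 (log2 ratio 1.52). FTL, the ferritin light chain, had 257 FPKM in Jurkat against 1983 in TALL104 (log2 ratio -2.94), whereas FTH1, the heavy chain, had 302 FPKM in Jurkat against 326 in TALL104 (log2 ratio -0.11), so the 2 chains of ferritin differed in ratio. NQO1 had 4.84 FPKM in Jurkat against 33.002 in TALL104 (log2 ratio -2.54), and EPAS1, a hypoxia factor, had 0.548 FPKM in Jurkat against 18.7 in TALL104 (log2 ratio -3.67). Many pseudogenes copy the ferritin genes, which makes their reads less certain.

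Chromatin enzymes included paralogues with opposite ratios. EZH2, the Polycomb methylase of dividing cells, had 47.3 FPKM in Jurkat against 9.92 in TALL104 (log2 ratio 2.14), whereas EZH1, its relative of resting cells, had 6.11 FPKM in Jurkat against 28.9 in TALL104 (log2 ratio -2.07). In the remodeller SWI/SNF, the alternative motors were opposed: SMARCA4 had 48.1 FPKM in Jurkat against 13.8 in TALL104 (log2 ratio 1.73), and SMARCA2 had 5.92 FPKM in Jurkat against 76.4 in TALL104 (log2 ratio -3.48). The Polycomb readers were opposed as well, CBX2 with 14.1 FPKM in Jurkat against 0.645 in TALL104 (log2 ratio 3.198) and CBX7 with 0.867 FPKM in Jurkat against 4.76 in TALL104 (log2 ratio -1.62). DNMT3A had 17.1 FPKM in Jurkat against 4.75 in TALL104 (log2 ratio 1.65), HDAC1 had 124 FPKM in Jurkat against 60.9 in TALL104 (log2 ratio 1.02), and HDAC2 had 20.9 FPKM in Jurkat against 7.62 in TALL104 (log2 ratio 1.34). The Polycomb and methylation list had 12 of 41 genes higher in Jurkat and 4 in TALL104. Of 34 replication-dependent histone genes 9 were measured, 7 of them higher in TALL104, among them H2AC25 with 2.14 FPKM in Jurkat against 12.5 in TALL104 (log2 ratio -2.104) and H2BC12 with 4.77 FPKM in Jurkat against 17.2 in TALL104 (log2 ratio -1.66). Most histone transcripts lack the poly(A) tail that messenger RNA capture uses, so these low values cover only what was captured, and their sequences are near copies.

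Adhesion genes leaned to TALL104, and the cytoskeleton was even. Of 27 integrins and their ligands, 3 were higher in Jurkat and 12 in TALL104, with a median of -0.90, and of 22 galectins, S100 proteins and annexins 1 was higher in Jurkat and 14 in TALL104, with a median of -1.30. ITGAL, the integrin LFA-1, had 31.8 FPKM in Jurkat against 216 in TALL104 (log2 ratio -2.73), ITGB7, which pairs with alpha-4 or alpha-E, had 2.67 FPKM in Jurkat against 143 in TALL104 (log2 ratio -5.299), and ITGA4 had 105 FPKM in Jurkat against 45.6 in TALL104 (log2 ratio 1.18), opposite to ITGB7. ITGA1, a collagen receptor of tissue-resident cells, had 1.09 FPKM in Jurkat against 24.5 in TALL104 (log2 ratio -3.61). The calcium-binding S100A11 had 0.211 FPKM in Jurkat against 222 in TALL104 (log2 ratio -7.52), and the sugar-binding LGALS1 had 4.39 FPKM in Jurkat against 229 in TALL104 (log2 ratio -5.42), while LGALS9 had 9.23 FPKM in Jurkat against 1.58 in TALL104 (log2 ratio 1.99) and its near copy LGALS9C had 0.127 FPKM in Jurkat against 6.24 in TALL104 (log2 ratio -2.68). DOCK8, an exchange factor that T and NK cells need to keep their shape in tissue, had 0.0104 FPKM in Jurkat against 74.002 in TALL104 (log2 ratio -6.21), and MYO1F, a myosin of leukocytes, had 0.461 FPKM in Jurkat against 67.2 in TALL104 (log2 ratio -5.54). Tubulins were on the other side, TUBA1B with 709 FPKM in Jurkat against 82.3 in TALL104 (log2 ratio 3.09) and TUBB with 1029 FPKM in Jurkat against 155 in TALL104 (log2 ratio 2.72), and have many near copies. ACTB had 1305 FPKM in Jurkat against 911 in TALL104 (log2 ratio 0.52) and TMSB4X, which binds actin monomers, had 897 FPKM in Jurkat against 1957 in TALL104 (log2 ratio -1.12). The 53 cytoskeleton genes had 10 higher in each line, near the background of 22.5% in Jurkat and 18.6% in TALL104, and a median of -0.07.

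The GIMAP GTPases, lymphocyte proteins encoded in one cluster on chromosome 7, lay together, with 6 of 7 higher in TALL104 and 0 in Jurkat. Their log2 ratios ran from -3.92 for GIMAP8, with 0.653 FPKM in Jurkat and 24.1 in TALL104, to -0.97 for GIMAP5. The other 5 lay between -1.86 for GIMAP6 and -1.23 for GIMAP2, a narrow range, and GIMAP7 was the most abundant with 58.5 FPKM in Jurkat against 214 in TALL104 (log2 ratio -1.86). Among ion channels 5 of 13 were higher in TALL104, with P2RX4, an ATP-gated channel, at 1.43 FPKM in Jurkat against 19.8 in TALL104 (log2 ratio -3.099) and TRPV2 at 8.56 FPKM in Jurkat against 38.3 in TALL104 (log2 ratio -2.04), and PIEZO1, the pressure-gated channel, had 32.3 FPKM in Jurkat and 32.3 in TALL104.

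Families that share a symbol stem were read beside the lists, 184 of them with at least 8 measured members. The median of their median log2 ratios was 0.06, and 80% of them lay between -0.78 and 0.87. Phosphodiesterases, which break down cyclic nucleotides, were higher in TALL104 in 8 of 14 cases, PDE4D with 0.205 FPKM in Jurkat against 21.3 in TALL104 (log2 ratio -4.21) and PDE4B with 0.0133 FPKM in Jurkat against 13.6 in TALL104 (log2 ratio -3.85). RGS proteins, which switch off G-protein signals, were higher there in 8 of 11, RGS18 with 0.594 FPKM in Jurkat against 32.03 in TALL104 (log2 ratio -4.37). DOCK exchange factors were higher in TALL104 in 5 of 8, DOCK10 with 10.04 FPKM in Jurkat against 68.5 in TALL104 (log2 ratio -2.65), and INPP phosphatases in 6 of 9. On the side of Jurkat the MCM genes had the highest median, with 8 of 10 higher there, and other families above the range included the kinesin motors, with 15 of 28 higher, KIF2C with 46.3 FPKM in Jurkat against 2.74 in TALL104 (log2 ratio 3.66), the nuclear pore proteins, with 12 of 22, NUP210 with 83.1 FPKM in Jurkat against 27.8 in TALL104 (log2 ratio 1.55), the import channel of mitochondria, with 5 of 8, TOMM22 with 94.3 FPKM in Jurkat against 23.3 in TALL104 (log2 ratio 1.97), and the RNA exosome, with 5 of 10. Mitochondrial ribosomal proteins were also above it, with 24 of 47 MRPL genes and 12 of 27 MRPS genes higher in Jurkat and 1 of each in TALL104. MRPL3, for one, had 87.1 FPKM in Jurkat against 24.1 in TALL104 (log2 ratio 1.81).

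Apart from the 91 genes with the highest levels and ratios (above 50 FPKM in either line and a natural log ratio above 3), the protein-coding genes with the largest ratios were of many kinds. In Jurkat they were PI16, a secreted peptidase inhibitor, with 41.9 FPKM in Jurkat against 0.0161 in TALL104 (log2 ratio 5.398, 1 read in TALL104, FPKM ratio 2598, interval 466 to 102648), CTSG, cathepsin G of myeloid granules, with 42.9 FPKM in Jurkat against 0.1797 in TALL104 (log2 ratio 5.22), PRAME, a cancer-testis antigen, with 34.7 FPKM in Jurkat against 0.0747 in TALL104 (log2 ratio 5.06), and FABP5, a fatty-acid binding protein, with 43.2 FPKM in Jurkat against 0.425 in TALL104 (log2 ratio 4.95). SIX6, a homeobox gene of the eye and pituitary, had 26.02 FPKM in Jurkat against 0.0127 in TALL104 (log2 ratio 4.74, 1 read in TALL104, FPKM ratio 2055, interval 369 to 81210.5). BCAT1, which breaks down branched-chain amino acids, had 28.1 FPKM in Jurkat against 0.0986 in TALL104 (log2 ratio 4.73), and ALDH1A2, which makes retinoic acid, had 26.4 FPKM in Jurkat against 0.0491 in TALL104 (log2 ratio 4.71). TCEAL9 had 29.7 FPKM in Jurkat against 0.225 in TALL104 (log2 ratio 4.65), and the list was completed by CD1B, CD1C, DTX1 and IGLL1. In TALL104 they were the lipid flippase ATP8B4 with 0.0476 FPKM in Jurkat against 47.5 in TALL104 (log2 ratio -5.53), the glycosyltransferase B3GALT2 with 44.9 FPKM in TALL104 against a listed 0 in Jurkat, the cytokine TNF with 0.103 FPKM in Jurkat against 49.5 in TALL104 (log2 ratio -5.52, 3 reads in Jurkat, FPKM ratio 481, interval 164 to 2336), and SLFN12L with 0.03596 FPKM in Jurkat against 44.3 in TALL104 (log2 ratio -5.45). TES, a focal adhesion protein, had 0.0134 FPKM in Jurkat against 40.7 in TALL104 (log2 ratio -5.36, 2 reads in Jurkat, FPKM ratio 3029, interval 838 to 25019), and NIBAN1 had 0.0687 FPKM in Jurkat against 38.4 in TALL104 (log2 ratio -5.203). PDE6G, a phosphodiesterase subunit known from the retina, had 0.109 FPKM in Jurkat against 37.7 in TALL104 (log2 ratio -5.12), and MYO1E had 0.00868 FPKM in Jurkat against 33.6 in TALL104 (log2 ratio -5.099, 2 reads in Jurkat, FPKM ratio 3867, interval 1070.1 to 31939.5). KIR3DL2, NCR1 and TYROBP were also on that list.

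Apart from the 2 genes at the edge of the rule and those of the closing section, 152 of the 339 genes named share exon bases with another annotated gene, and for 47 of them the other gene is on the same strand: ACTB, AHR, ASNS, BMI1, BTG1, CBX7, CCND2, CHEK1, CTSD, DDIT3, EGR2, GBP2, GIMAP5, HAVCR2, HLA-B, HSPE1, IFI6, IFITM1, IFITM2, IL18R1, IL2RG, IL32, ITGA1, JAG2, JAK1, LDHB, LGALS9, MCL1, MCM7, MT-ATP8, MXD1, MXD4, NCL, NFKBIZ, NPC2, PIK3R3, POLD4, PSMB5, PYCR1, RCAN1, SLFN12L, SOS1, STMN1, TCP1, TRIM22, TRPV2 and UBE2S. The values of these 47 may include reads of the other gene. Whether the counting used strand, and how reads that align to several places were counted, is not given in the sources used here.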

How the data were processed

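Bulk messenger RNA was sequenced with 1 stranded library per line. Per the study's methods and the submitters' processing notes, the authors aligned reads with STAR (2.5.1b in the notes) to joined human hg19 and mouse mm10 genomes, counted them per gene with featureCounts (1.6.3 in the notes), and deposited FPKM for both species in 1 table. The gene lengths behind them are not given in the sources used here, and 0 columns were left unused.

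Genes with at least 1 FPKM in either human line were kept, and log2 ratios were taken after adding 1 to each FPKM, which shrinks the ratios of low genes. A 2-fold ratio was the call, with no test. Genes listed at 0 in a line have no ratio printed. Symbols and positions came from GENCODE 44 on GRCh37, matched by identifier for 31182 of 32738 human genes, and 304 measured genes had no symbol. The 58 hand-written lists held 1846 distinct genes that were matched, and a further 27 list entries could not be matched by symbol and were not analysed here. Promoter windows came from RefSeq on GRCh38.p14, matched by symbol, with motifs searched on both strands.

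Library totals and reads were solved for from the FPKM steps at a relative tolerance of 1e-12 over lengths up to 300000 bases. Every value above 0 came out whole. The length so found was the annotated exon length for 23.1% of genes, and reads of the rest may miss a shared factor, which makes their intervals too wide. Intervals are exact Poisson and, for ratios, Clopper-Pearson intervals at 95%. The recovery was tested on simulated data.

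Named genes were up to 4 past 2-fold in each direction and the 3 highest of a list, any of lists with 12 or fewer measured, the 12 largest ratios in each direction among other protein-coding genes of 10 FPKM or more, and up to 4 of a family. Some genes that this rule named are not reported here. CD4, NOTCH2, MCM6, SPIN3 and SLC23A3 were added after their values were seen. The members, lists and rules were chosen with earlier results of these data known. Alternatives were minimums of 5 FPKM, of 1 FPKM in both lines and none, a pseudocount of 0.1, thresholds of 1.5-fold and 4-fold, protein-coding genes alone, and 3 rescalings. Python 3.11.15, NumPy 2.4.6, pandas 2.3.3, SciPy 1.17.1 and matplotlib 3.10.9 were used.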

Additional observations from a re-analysis of the deposited data

Results flagged for a closer look

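Both human libraries held reads on mouse genes, a signal outside the comparison of human genes. Mouse genes held 0.0474% of the FPKM in Jurkat and 0.0457% in TALL104, above what a count of 0 allows. The 2 shares were close, and a control library for them was not among those analysed.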

How the results depend on the processing

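Without a minimum, 20550 human genes had any FPKM above 0. With at least 1 FPKM required in both lines, 1679 genes were higher in Jurkat and 1300 in TALL104. At 1.5-fold the counts were 4177 and 3465, and at 4-fold 816 and 873. A pseudocount of 0.1 gave 3201 and 2806. Of the genes past 2-fold, 54.7% were higher in Jurkat, against 50.1% (2495 and 2487) when rescaled without mitochondrially encoded genes, 49.9% (2487 and 2495) when scaled by the median ratio, and 49.6% (2471 and 2509) on protein-coding genes without mitochondrially encoded and ribosomal protein genes, so the direction turned under the last 2. The median of each of the 22 lists past 2-fold kept its sign under every alternative run, and 16 of them stayed past 2-fold under all. The other 6 came within 2-fold under at least 1 alternative: coreceptors and checkpoint receptors (to -0.61), T-leukaemia transcription factors (to 0.02), NF-kappa-B (to -0.66), early-response factors (to -0.42), histones (to -0.07), and galectins, S100 and annexins (to -0.79). Of the 36 lists within 2-fold, the BCL2 family and the oxidative stress list changed sign. Some of the 36 passed 2-fold under at least 1 alternative. The furthest were the myeloid list (to -3.49), the long non-coding RNA list (to -1.76) and the erythroid list (to 1.51). Arrestin relatives (to -1.39), cytokine feedback (to -1.32), interferon-stimulated genes (to -1.30) and integrins (to -1.09) did so too. Class I and class II presentation, death receptors, lysosome and DNA repair passed it narrowly. No paired analysis was possible because each line had 1 library. Leaving out a replicate was not possible for the same reason, so neither the spread between cultures nor the effects of medium, growth or viability could be measured. Depth limits genes near 1 FPKM: over genes of at least 1 FPKM, the interval of a value reached 21.5% or more to either side in Jurkat, and 26.2% or more in TALL104, for the least certain 5%.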

Other observations

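Long non-coding RNAs leaned to TALL104. Of 1003 measured, 284 were at least 2-fold higher in TALL104 and 171 in Jurkat, with a median log2 ratio of -0.45, against 1895 and 2513 of 10833 protein-coding genes with a median of 0.15. LINC01871 had 278 FPKM in TALL104 against a listed 0 in Jurkat. NEAT1, the scaffold of nuclear paraspeckles, had 5.11 FPKM in Jurkat against 83.5 in TALL104 (log2 ratio -3.79), and MALAT1, an RNA of nuclear speckles, had 12.4 FPKM in Jurkat against 97.7 in TALL104 (log2 ratio -2.88). MIAT had 2.26 FPKM in Jurkat against 30.3 in TALL104 (log2 ratio -3.26). On the other side the small nucleolar RNA host gene SNHG15 had 23.8 FPKM in Jurkat against 7.97 in TALL104 (log2 ratio 1.47), and its relative SNHG12 had 3.56 FPKM in Jurkat against 14.6 in TALL104 (log2 ratio -1.78), so the host genes were split. TUG1 had 41.01 FPKM in Jurkat against 41.9 in TALL104 (log2 ratio -0.03) and was near equal.

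Along the chromosomes (GRCh37), medians per chromosome ran from -0.12 on chromosome 19 to 0.35 on chromosome 18. In 229 windows of 50 measured genes, the lowest median was -0.93, on chromosome 15 from 20935076 to 35280488, and the highest 0.91, on chromosome X from 77166187 to 107334779. The first window holds the golgin gene cluster, whose members are near copies and may exchange reads, among them GOLGA8A with 0.956 FPKM in Jurkat against 54.98 in TALL104 (log2 ratio -4.84) and GOLGA8B with 4.46 FPKM in Jurkat against 40.4 in TALL104 (log2 ratio -2.92). In the same window NDN, an imprinted growth regulator, had 14.7 FPKM in Jurkat against 0.0187 in TALL104 (log2 ratio 3.95, 1 read in TALL104, FPKM ratio 788, interval 141 to 31158). The second window holds the BEX and TCEAL genes: BEX1 had 61.9 FPKM in Jurkat against 0.0817 in TALL104 (log2 ratio 5.86, 2 reads in TALL104, FPKM ratio 758, interval 209.5 to 6263), BEX3 had 53.2 FPKM in Jurkat against 0.389 in TALL104 (log2 ratio 5.29), and TCEAL9 had 29.7 FPKM in Jurkat against 0.225 in TALL104 (log2 ratio 4.65).

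The level of SOS1 in TALL104 was not shared by the genes beside it on chromosome 2. MAP4K3, the next measured gene, had 2.08 FPKM in Jurkat against 1.16 in TALL104 (log2 ratio 0.51), SRSF7 had 62.3 FPKM in Jurkat against 41.96 in TALL104 (log2 ratio 0.56), and DHX57 had 3.38 FPKM in Jurkat against 3.47 in TALL104 (log2 ratio -0.03). KIT on chromosome 4 was also alone, since the measured genes on either side, CHIC2 and SRD5A3, had 8.38 FPKM in Jurkat against 8.27 in TALL104 (log2 ratio 0.02) and 12.6 FPKM in Jurkat against 1.804 in TALL104 (log2 ratio 2.28). The genes in this paragraph and the preceding one were chosen after their values were seen.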
